A study of Canis lupus familiaris with 34 samples.

Results

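VWF and 9 other genes, of clotting control at the endothelium and vessel wall or related to such genes, were followed in the mitral valves of 34 dogs. VWF was selected on its difference between dogs with and without heart failure in an earlier look at these data, so that difference is given here as a description, with no test. The other 9, SELP, THBD, PROCR, F8, TFPI, TFPI2, F3, MMRN1 and MMRN2, were placed beside it for their functions. The 10 genes were taken by symbol from a table of 23768 features, and all 10 were among the 19568 features that reached 100 counts when summed over the dogs.

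The valves came from privately owned Cavalier King Charles Spaniels of about 10 years, a breed prone to myxomatous mitral valve disease (MMVD). The 10y-noCHF group held 19 dogs (10 females and 9 males) without congestive heart failure (CHF), and the 10y-MMVD-CHF group held 15 dogs (6 females and 9 males) with MMVD and CHF. Dogs of the first group ranged from no detectable disease to valve disease with an enlarged heart, and these stages could not be matched to single dogs, so it is no group of healthy valves. Poly-A RNA was sequenced in 1 library per dog, with 46185256 to 82361245 counts per library. Values are CPM, which scale each count to the size of its library, after TMM normalization. Marker genes of valve interstitial cells summed to between 15276 and 39870 CPM in the dogs, and all 16 endothelial markers passed the count filter. Cardiac muscle markers varied far more, from 55.9 to 50652 CPM summed over 15 genes, and this spread returns below. The library of CAV1047 had the lowest total count and the most cardiac muscle RNA, and that of CAV614 had a high red blood cell marker score (3.18, against group means of -0.69 and -0.89).

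Endothelial cells store von Willebrand factor, the protein that tethers platelets to an injured wall, in Weibel-Palade bodies together with P-selectin (SELP), and release both on stimulation. In plasma von Willebrand factor carries and protects coagulation factor VIII (F8), which is also made in endothelium. Clotting starts when blood meets tissue factor (F3), and intact endothelium holds it back through thrombomodulin (THBD) and the endothelial protein C receptor (PROCR), which serve protein C activation. Tissue factor pathway inhibitor (TFPI) also restrains clotting, and TFPI2 is a relative of TFPI. Multimerin 1 (MMRN1) is a factor V binding protein of platelets and endothelium, and multimerin 2 (MMRN2) lies in the endothelial matrix.

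VWF lies on chromosome 27 from 7119622 to 7257688, minus strand, of the canine assembly UU_Cfam_GSD_1.0, and its counts came from 52 intervals of 8743 bases in the canine RefSeq annotation. In the 10y-noCHF valves its lowest level was 17.4, its median 61.5 and its highest 211 CPM. In the 10y-MMVD-CHF valves the lowest level was 81.7, the median 168 and the highest 557 CPM. All 15 dogs with CHF stood above the median of the other group, although the groups overlapped. Below the lowest dog with CHF lay 11 of 19 dogs without it, and 5 of 15 dogs with CHF lay above the highest dog without it. The fitted difference was 1.40 on the log2 scale (SE 0.30, n = 15 and 19), a 2.65-fold higher level with a 95% interval of 1.73 to 4.04. That interval makes no allowance for the choice of VWF on this contrast and is not read as a test. Leaving out each dog in turn gave values from 1.22, without CAV648, to 1.63, without CAV865, the dogs with the highest VWF of their groups.

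**Figure D1:**
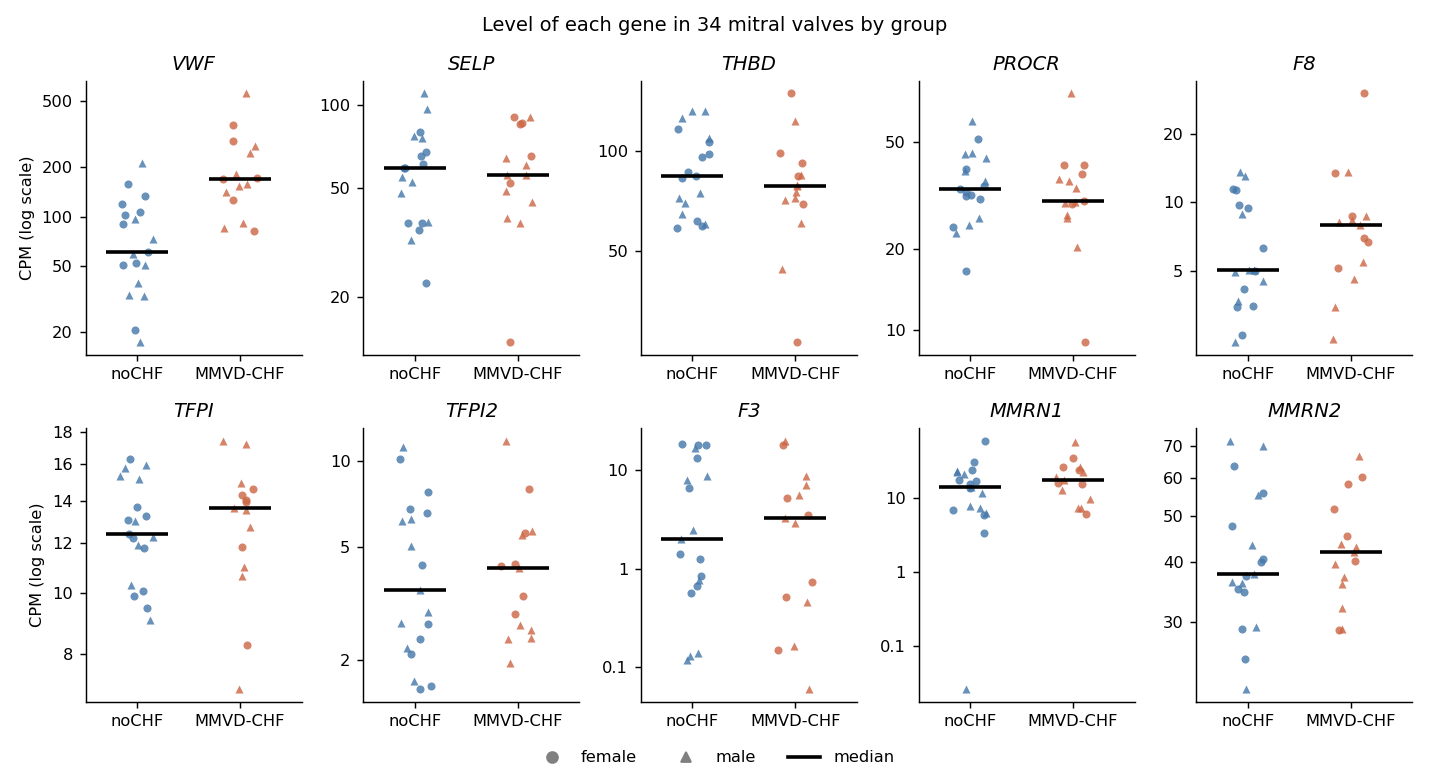
CPM of each of the 10 genes on a log axis, 1 point per dog, by group (19 10y-noCHF dogs in blue and 15 10y-MMVD-CHF dogs in orange, circles for females and triangles for males), with the median as a line; each panel has its own axis. The VWF medians were 61.5 and 168 CPM, whereas those of SELP were 59.0 and 55.7 CPM.

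Split by sex, the dogs on which VWF was chosen had a higher median level with CHF in females and in males. The values by sex are parts of the contrast used for that choice, so they are a description and no separate evidence. Females without CHF had a median VWF level of 95.9 CPM and females with CHF 170 CPM, a log2 difference of 1.15 (SE 0.43). Males without CHF had a median of 51.4 CPM and males with CHF 157 CPM, a log2 difference of 1.61 (SE 0.41). The difference between the sexes in this contrast was tested and was within its error (0.46, SE 0.60, 95% interval -0.77 to 1.68, edgeR FDR = 0.985). A second set of features, placed by aligning human RefSeq transcripts to the dog genome, lists VWF as a span of 136638 bases with introns. From that feature the log2 difference was 1.34.

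SELP, whose product shares a storage granule with von Willebrand factor, had close to the same level in both groups. Located on chromosome 7 (28881019 to 28918852, plus strand), SELP had a lowest level of 22.4, a median of 59.0 and a highest of 110 CPM without CHF, and 13.7, 55.7 and 90.5 CPM with CHF. The 2 ranges lay over each other almost entirely. Its log2FoldChange was 0.02 (SE 0.20, FDR = 0.994), and the 95% interval ran from a fold of 0.76 to 1.35. F8, the cargo of von Willebrand factor in plasma, is X-linked (chromosome X, 123987629 to 124161753, minus strand). Its level was 2.42, 5.02 and 13.6 CPM (lowest, median, highest) without CHF and 2.50, 7.97 and 30.2 CPM with CHF. Of the dogs with CHF, 12 of 15 stood above the median of the other group. The log2FoldChange of F8 was 0.40 (SE 0.28, FDR = 0.864) and dropped to 0.15 without CAV1047, the dog with the highest F8.

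The 2 receptors of the protein C pathway had overlapping levels, with the lowest and the highest dog of each among those with CHF. THBD, a gene of 1 exon on chromosome 24 (978557 to 980433, plus strand), ranged from 58.7 to 132 CPM with a median of 84.0 without CHF, and from 26.5 to 149 CPM with a median of 78.2 with CHF. Its log2FoldChange was -0.15 (SE 0.16, FDR = 0.939). PROCR, on the same chromosome (24697534 to 24701002, plus strand), ranged from 16.6 to 59.5 CPM (median 33.4) and from 9.05 to 75.3 CPM (median 30.1). For PROCR the log2FoldChange was -0.09 (SE 0.17, FDR = 0.967). A human-derived MMP24-AS1-EDEM2 feature on the opposite strand overlaps PROCR, and reads were counted without strand, so its counts may include reads of that locus. CAV1047 had the lowest level of both receptors among the 15 dogs with CHF.

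F3, TFPI and TFPI2 differed in how far they spread between dogs. F3, on chromosome 6 (55203270 to 55214213, plus strand), ran from 0.118 to 18.5 CPM (median 2.01) without CHF and from 0.060 to 19.9 CPM (median 3.27) with CHF, a 332-fold range over all dogs on 5 to 1392 counts. The F3 groups were spread over the same range, and the log2FoldChange of -0.17 had an SE of 0.74 (FDR = 0.986), so a change of up to 2.51-fold higher or to 0.31 of the level was within its interval. TFPI, on chromosome 36 (29848287 to 29900234, minus strand), had a 2.49-fold range over all dogs, the narrowest of the 10 genes. It ranged from 9.04 to 16.3 CPM (median 12.4) without CHF and from 7.02 to 17.5 CPM (median 13.7) with CHF. With a log2FoldChange of 0.03 (SE 0.10, FDR = 0.986), its fold interval was 0.88 to 1.18. TFPI2, on chromosome 14 (19358489 to 19363420, minus strand), was listed only as a human-derived feature. Its level was low, at 1.58 to 11.2 CPM (median 3.53) without CHF and 1.95 to 11.8 CPM (median 4.22) with CHF, with a log2FoldChange of -0.03 (SE 0.29, FDR = 0.994).

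The 2 multimerins, like TFPI2, were listed only as human-derived features. MMRN1, on chromosome 32 (26768370 to 26842036, minus strand), ran from 0.026 to 58.7 CPM (median 13.7) without CHF and from 6.07 to 55.5 CPM (median 17.4) with CHF. Its log2FoldChange was 0.39 (SE 0.41, FDR = 0.934), and it moved between 0.18, without CAV2156, and 0.56, without CAV494. In limma voom with sample weights it was 0.91 (FDR = 0.572). MMRN2, on chromosome 4 (35469876 to 35485332, minus strand), ran from 21.8 to 71.8 CPM (median 37.8) and from 28.9 to 66.5 CPM (median 42.1), with a log2FoldChange of 0.03 (SE 0.15, FDR = 0.987).

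Of the 9 genes beside VWF, 0 passed FDR 0.1 in edgeR, 0 had an unadjusted p under 0.05, and 0 passed in DESeq2. Over all features 0.118% passed in edgeR (23 of 19568), and at an unadjusted p under 0.05 it was 6.31% (1234), with 64 features passing in DESeq2, so a count of 0 in 9 genes is near this background and says nothing about the genes as a list. Their median log2FoldChange was 0.02, beside 0.01 over all features.

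**Figure D2:**
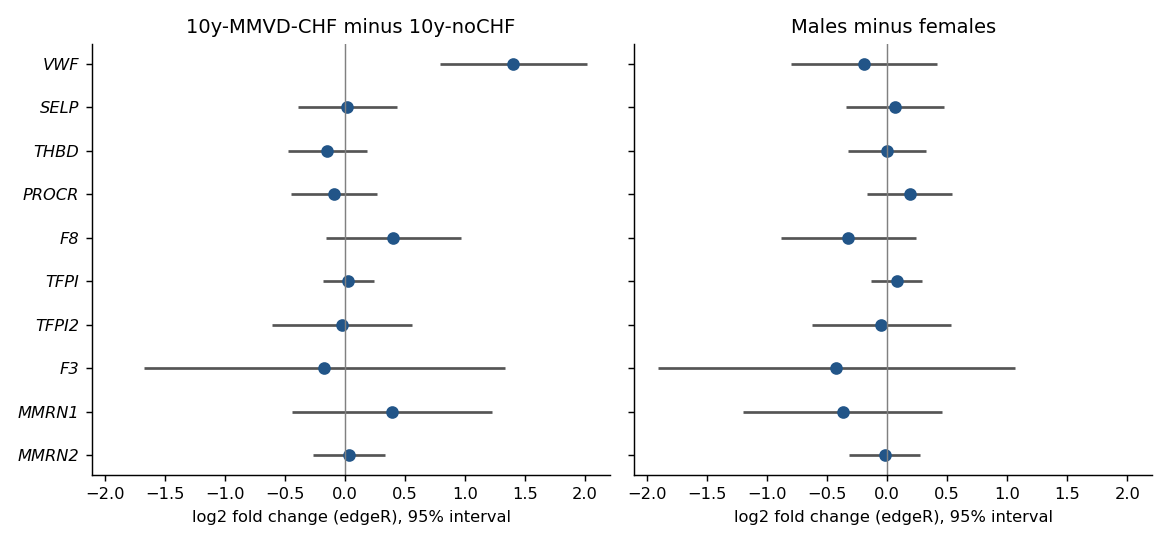
Log2 fold change from edgeR with its 95% interval for each of the 10 genes, for 10y-MMVD-CHF minus 10y-noCHF at left and for males minus females at right. VWF sits at 1.40 at left, the contrast on which it was chosen, so its interval there is no test. The intervals of the other 9 genes at left and of all 10 genes at right include 0.

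Sex was not used in choosing the genes and could be tested. In males against females 0 of the 10 genes passed FDR 0.1 in edgeR, with 0 at an unadjusted p under 0.05 among the 9 beside VWF, and 0 of those 9 in DESeq2. Over all features 0.143% passed in edgeR, 2.98% had an unadjusted p under 0.05 (583) and 37 passed in DESeq2. VWF had a log2 difference of -0.19 (SE 0.30, interval -0.80 to 0.42). F8, although X-linked, had a log2 difference of -0.32 (SE 0.28, interval -0.89 to 0.24), and it was -0.09 without CAV1047. For the interaction of CHF and sex, edgeR passed 0 of the 10 genes, 0 of which had an unadjusted p under 0.05, and 0% of all features (1178 of 19568 had an unadjusted p under 0.05, and DESeq2 passed 3). F8 had a log2 difference between the groups of 0.82 (SE 0.40) in females and 0.04 (SE 0.37) in males, and the interaction of -0.78 (SE 0.55) was within its error (FDR = 0.887).

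Levels can be set against each other per length for the 7 genes with a canine RefSeq feature, as CPM per kb of that feature. PROCR had the highest median (45.1 CPM per kb over 34 dogs), followed by THBD (43.0), SELP (22.6), VWF (11.9), TFPI (10.3), F3 (1.50) and F8 (0.905). The place of VWF in this order turned with the group on which it was selected. Without CHF its median was 7.03 and that of TFPI 9.79 CPM per kb, with VWF above TFPI in 8 of 19 dogs, whereas with CHF the medians were 19.3 and 10.8 CPM per kb, with VWF above TFPI in 13 of 15 dogs. No test of VWF against its neighbours over the pooled dogs is therefore read here. Neighbours without VWF were compared by a two-sided permutation test that flips the signs of the paired log2 differences, adjusted over 6 pairs. PROCR and THBD (permutation adjusted p = 0.553) and F3 and F8 (permutation adjusted p = 0.545) were not separated beyond the spread of dogs. THBD exceeded SELP in 34 of 34 dogs, by 1.01 on the log2 scale (SD 0.36, permutation adjusted p = 3e-05), and TFPI exceeded F3 in 29 of 34 (3.17, SD 2.62, permutation adjusted p = 3e-05). The canine features of THBD and TFPI held 30.8% and 38.1% of the counts of their human-derived features, against 93.8% for VWF, so the features differ in how much of a transcript they hold, and the order can depend on it.

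**Figure D3:**
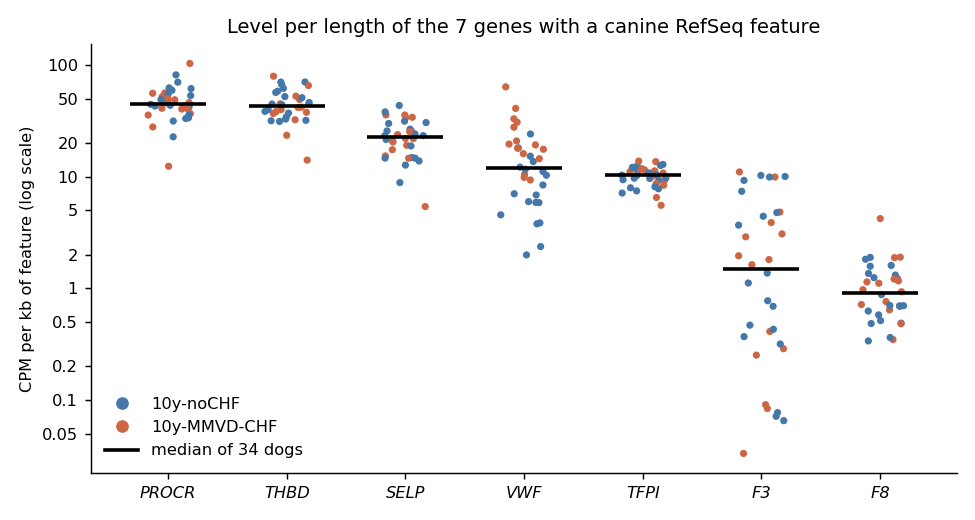
CPM per kb of feature length on a log axis for the 7 genes with a canine RefSeq feature, 1 point per dog coloured by group, with the median of 34 dogs as a line. PROCR and THBD sit at medians of 45.1 and 43.0, VWF at 11.9 with the dogs with CHF toward its top, and F3 spreads over more than any other gene shown.

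Whether VWF follows its fellow genes from dog to dog was tested on log2 CPM after removing the means of the 4 groups of CHF status and sex, a measure that the choice of VWF did not use. Of 9 relations, 0 passed an adjusted p of 0.05 by permutation within these groups, and 2 had an unadjusted Spearman p under 0.05, those with F8 and F3. VWF and SELP had no detected relation (Pearson's r = -0.088, permutation p = 0.632, adjusted 0.713, and Spearman's rho = -0.041, permutation p = 0.828, adjusted 0.828, n = 34). Their r was -0.117 within the dogs with CHF and -0.067 within those without, and -0.006 when the 2 dogs farthest from the SELP median were left out. The relation with the highest rho was with F8, the partner of von Willebrand factor in plasma (r = 0.482, permutation p = 0.00602, adjusted 0.0542, and rho = 0.445, permutation p = 0.0121, adjusted 0.109). This r was 0.372 with CHF, 0.557 without CHF and 0.496 without the 2 farthest dogs, but the rho was 0.125 with CHF and 0.528 without CHF. Once the cardiomyocyte marker score described below was removed, the rho with F8 was 0.187 (permutation, adjusted p = 0.698). With F3 the r was 0.358 (permutation p = 0.0483, adjusted 0.217) and the rho 0.389 (permutation p = 0.0303, adjusted 0.136). The r with F3 was 0.379 without the 2 farthest dogs, 0.301 with CHF and 0.402 without CHF.

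The other 9 genes gave 36 pairs, a family added after the data were seen, and 12 passed an adjusted p of 0.05. Of these 12, 10 joined SELP, THBD, PROCR, TFPI and MMRN2 to each other (10 of 10 possible pairs), all in the same direction, a grouping seen in these values and not tested as a group. The strongest by rank was SELP with MMRN2 (r = 0.792, permutation p = 1e-05, adjusted 9e-05, and rho = 0.819, permutation p = 1e-05, adjusted 0.00012). The r was 0.784 without the 2 farthest dogs, 0.870 with CHF and 0.780 without CHF. SELP with THBD came next (r = 0.835, permutation p = 1e-05, adjusted 9e-05, and rho = 0.814, permutation p = 1e-05, adjusted 0.00012), with r = 0.742 without the 2 farthest dogs, 0.825 with CHF and 0.856 without CHF. With 100000 resamples no p can fall below 1e-05. The weakest of the 10 by rank was PROCR with MMRN2 (r = 0.548, permutation p = 0.00126, adjusted 0.00454, and rho = 0.511, permutation p = 0.00366, adjusted 0.011), with r = 0.406 without the 2 farthest dogs, 0.856 with CHF and 0.350 without CHF. Of the 10 pairs, 8 passed without CAV614 and CAV1047, and all 10 after the cardiac muscle score was removed as well. The remaining 2 pairs involved F3, which rose with F8 (r = 0.617, permutation p = 0.00038, adjusted 0.00171, rho = 0.630, permutation p = 0.00023, adjusted 0.00103) and went against PROCR (r = -0.428, permutation p = 0.0159, adjusted 0.0478, rho = -0.532, permutation p = 0.00226, adjusted 0.00814). These r were 0.704 and -0.503 without the 2 farthest dogs, 0.708 and -0.378 with CHF, and 0.542 and -0.500 without CHF.

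**Figure D4:**
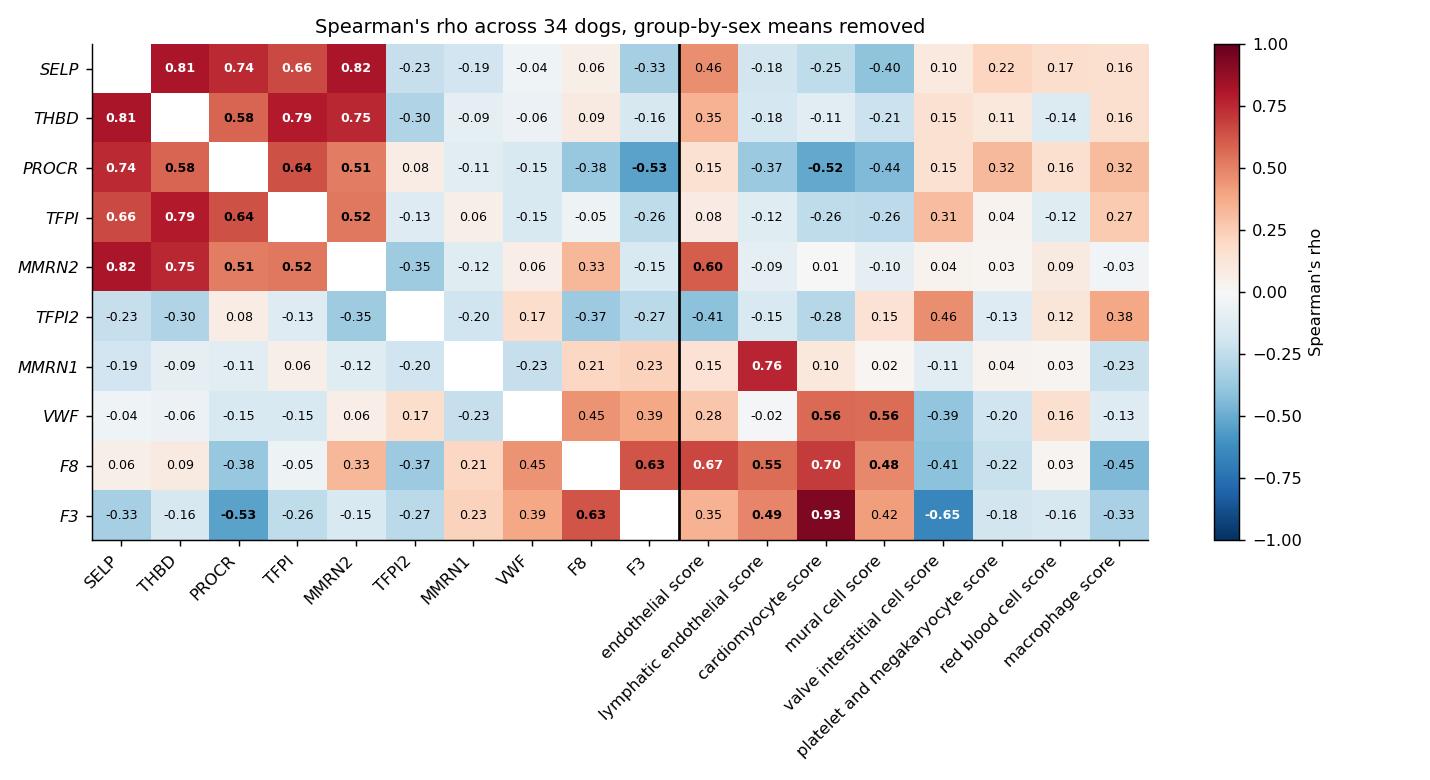
Spearman's rho of log2 CPM across 34 dogs, after removing the means of CHF status by sex, between the 10 genes (left of the line) and of each gene with 8 marker scores (right), from blue (-1) to red (1); bold values passed an adjusted p of 0.05. SELP, THBD, PROCR, TFPI and MMRN2 form a red block at 0.51 to 0.82, VWF has values of -0.15 to 0.06 with these 5 genes, and F3 reaches 0.93 with the cardiomyocyte score.

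The cell content of each sample was described by 8 scores, each the mean log2 CPM of a list of marker genes, and in bulk tissue fewer cells of a type cannot be told apart from less RNA per cell. The endothelial score was 4.53 ± 0.26 without CHF and 4.57 ± 0.23 with CHF (SD, n = 19 and 15), a difference of 0.05 (permutation within sex, p = 0.548, adjusted 0.895). VWF minus this score was 1.50 ± 0.90 without CHF and 2.90 ± 0.70 with CHF on the log2 scale, and 14 of 15 dogs with CHF were above the median of the other group. With the endothelial score as a covariate the log2 difference of VWF was 1.31. The platelet and megakaryocyte markers, cells that also carry VWF and SELP, summed to 7.45 to 41.7 CPM without CHF and 7.38 to 23.04 CPM with CHF over 11 of 12 listed genes. GP6 was at 0 counts in the median dog, and the platelet score differed by -0.30 (permutation p = 0.211, adjusted 0.843). Of the 8 scores 0 passed an adjusted p of 0.05 between the groups by permutation, and 1 had an unadjusted p under 0.05. That was the macrophage score, with a difference of 0.38 (permutation p = 0.0322, adjusted 0.258).

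Across dogs, 12 of the 80 relations of the 10 genes with the 8 scores passed, and cardiac muscle gave 4 of them. F3 followed the cardiomyocyte score most closely of the 80 (r = 0.915, permutation p = 1e-05, adjusted 0.0004, and rho = 0.932, permutation p = 1e-05, adjusted 0.0004). The r was 0.919 without the 2 farthest dogs, 0.959 with CHF and 0.887 without CHF. F8 followed it too (r = 0.649, permutation p = 0.00011, adjusted 0.00176, and rho = 0.697, permutation p = 6e-05, adjusted 0.0012, r = 0.576 without the 2 farthest dogs, 0.702 with CHF and 0.612 without CHF), as did VWF (r = 0.565, permutation p = 0.0011, adjusted 0.00978, and rho = 0.564, permutation p = 0.00132, adjusted 0.0132). For VWF the r was 0.548 without the 2 farthest dogs, 0.414 with CHF and 0.655 without CHF. Without CAV614 and CAV1047 the rho of VWF was 0.504 (permutation, adjusted p = 0.0496). PROCR went the other way (rho = -0.515, permutation p = 0.00346, adjusted 0.0277, and r = -0.421, permutation p = 0.0197, adjusted 0.0787), with r = -0.427 without the 2 farthest dogs, -0.403 with CHF and -0.466 without CHF. This call was lost without CAV614 and CAV1047 (rho = -0.454, permutation, adjusted p = 0.101). The cardiomyocyte score itself was 5.90 ± 3.26 without CHF and 6.22 ± 2.84 with CHF (SD), and with it as a covariate the log2 difference of VWF between the groups was 1.42, against 1.40 without it. After its removal the rho of VWF with F3 was -0.510 (permutation, adjusted p = 0.0292), opposite in sign to the 0.389 above. The scores ran from -0.07 to 10.7, with no gap between neighbouring dogs wider than 1.48.

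**Figure D5:**
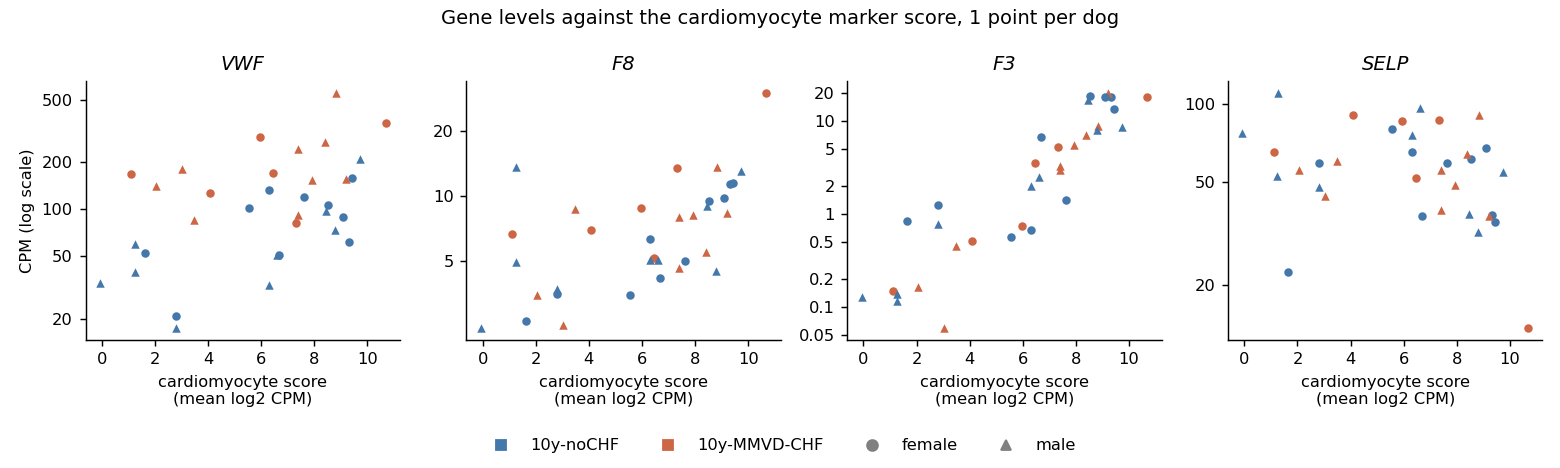
CPM of VWF, F8, F3 and SELP on log axes against the cardiomyocyte score (mean log2 CPM of 15 markers), 1 point per dog, coloured by group and shaped by sex. F3 tended to be higher in dogs with a higher score, without a steady climb at either end of the range. Its r of 0.915 is for values with the means of CHF status by sex removed, whereas the points are plotted without that removal. VWF was chosen on its difference between the groups, so the separation of its colours is no test.

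VWF also went with the mural cell score (r = 0.604, permutation p = 0.00048, adjusted 0.00549, and rho = 0.556, permutation p = 0.0015, adjusted 0.0133), with r = 0.522 without the 2 farthest dogs, 0.726 with CHF and 0.551 without CHF. This rho was 0.428 and did not pass (permutation, adjusted p = 0.174) once the cardiomyocyte score was removed. Without CAV614 and CAV1047 it was 0.507 (permutation, adjusted p = 0.0496). The mural cell score is the mean of MYH11, CNN1, ACTA2, TAGLN, DES, RGS5, NOTCH3, PDGFRB, CSPG4 and KCNJ8, and which cells gave this RNA was not tested. With the endothelial score VWF had a rho of 0.280 (permutation p = 0.133, adjusted 0.334) and an r of 0.410 (permutation p = 0.0253, adjusted 0.0921). This r was 0.275 without the 2 farthest dogs, 0.478 with CHF and 0.371 without CHF, but the rho was 0.036 with CHF and 0.309 without CHF. With the endothelial score 2 of 10 genes passed. They were F8 (rho = 0.667, permutation p = 6e-05, adjusted 0.0012, r = 0.656, permutation p = 6e-05, adjusted 0.0012) and MMRN2 (rho = 0.604, permutation p = 0.00088, adjusted 0.0117, r = 0.651, permutation p = 0.00021, adjusted 0.0028). Their r were 0.597 and 0.611 without the 2 farthest dogs, 0.521 and 0.522 with CHF, and 0.753 and 0.722 without CHF. By rank they were weaker with CHF (rho = 0.346 and 0.350) than without CHF (rho = 0.770 and 0.670). After removal of the cardiomyocyte score F8 no longer passed (rho = 0.508, permutation, adjusted p = 0.0647), MMRN2 did (rho = 0.631, permutation, adjusted p = 0.00817), and so did SELP (rho = 0.645, permutation, adjusted p = 0.00595), whose rho was 0.461 before (permutation, adjusted p = 0.0616). Without CAV614 and CAV1047 SELP also passed (rho = 0.519, permutation, adjusted p = 0.0496).

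MMRN1 followed the lymphatic endothelial score (r = 0.846, permutation p = 1e-05, adjusted 0.0004, and rho = 0.762, permutation p = 1e-05, adjusted 0.0004), with r = 0.740 without the 2 farthest dogs, 0.754 with CHF and 0.907 without CHF. The lymphatic chemokine gene CCL21, 1 of the 6 markers of this score, had a rho of 0.873 with MMRN1. None of the other markers of the score was among the 3 genes closest to MMRN1, so the relation may rest largely on CCL21. In CAV749, where MMRN1 had 2 counts, CCL21 had 4 counts and was also the lowest of 34 dogs. Of the other lymphatic markers, PROX1 was the second lowest (12.2 CPM beside a median of 18.9 CPM), PDPN was above its median (46.9 and 44.4 CPM), and LYVE1 (59.1 and 77.5 CPM), FLT4 (23.9 and 24.5 CPM) and RELN (53.2 and 62.1 CPM) were below theirs, at ranks 10, 14 and 12 from the lowest. The remaining relations that passed were F8 with the lymphatic (rho = 0.555, permutation, adjusted p = 0.0125) and mural (rho = 0.482, permutation, adjusted p = 0.0462) scores, F3 with the lymphatic score (rho = 0.491, permutation, adjusted p = 0.0354) and F3 with the valve interstitial score (rho = -0.653, permutation, adjusted p = 0.00128). None of these 4 passed after the cardiomyocyte score was removed (rho = 0.427, 0.292, 0.424 and -0.297, permutation, adjusted p = 0.174, 0.386, 0.174 and 0.355), whereas MMRN1 with the lymphatic score did (rho = 0.752, permutation, adjusted p = 0.0007). Without CAV614 and CAV1047 the calls of F8 with the mural score (permutation, adjusted p = 0.167) and of F3 with the lymphatic score (permutation, adjusted p = 0.101) were lost.

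The genes most like each member were sought among features with a mean of at least 1 CPM, by the rho of the same residuals over 34 dogs, as a description. The 10 closest to VWF were NRDC (0.722), CDC27 (0.705), CTNNA1 (0.696), TXNRD1 (0.692), MAP3K5 (0.689), MAPKAPK3 (0.684), TNPO3 (0.680), ANXA6 (0.678), ETF1 (0.676) and SLC30A9 (0.670). The log2FoldChange of these 10 genes between the groups lay between -0.02 and 0.10. None is among the 16 endothelial markers, but 16171 features were searched, so a count of 0 is near the background and says nothing about VWF. SELP, THBD and MMRN2 each had the endothelial junction gene PECAM1 among their 3 closest (rho = 0.888, 0.865 and 0.795). PECAM1 is 1 of the 16 endothelial markers. With the score of all 16 the rho was 0.461, 0.350 and 0.604 (permutation, adjusted p = 0.0616, 0.196 and 0.0117), so only MMRN2 passed. SELP was also near GALNT7 (0.884) and MET (0.877), THBD near PODXL (0.860) and OLFML2A (0.820), and MMRN2 near SELP itself (0.819) and the endothelial lectin gene CLEC14A (0.809). PROCR was closest to the prostacyclin synthase gene PTGIS (0.833), then HHEX (0.812) and SMAGP (0.808), and TFPI to the human-derived feature of THBD (0.808), then TMEM30A (0.777) and SGMS2 (0.759). F8 was closest to the hypoxia-response gene EPAS1 (0.891), USP24 (0.890) and VWA8 (0.886). F3 was closest to KCNJ11 (0.953), which encodes a potassium channel of cardiac muscle, ADPRHL1 (0.951) and the lipoprotein lipase gene LPL (0.950). MMRN1 was nearest to CCL21 (0.873), then TBX1 (0.662) and SCN3A (0.635), and TFPI2 to IL1RL1 (0.698), TNFRSF11B (0.680) and P4HB (0.671).

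Genes that work with VWF and its neighbours were taken from 8 lists of 98 genes in all, of which 85 were tested. Between the groups 0 of the 85 passed FDR 0.1 in edgeR, 7 had an unadjusted p under 0.05, and 0 passed in DESeq2, against 0.118% of all features in edgeR, 6.31% at an unadjusted p under 0.05 and 64 features in DESeq2. Their median log2FoldChange was -0.02, with 40 positive and 45 negative values. Of the 23 genes tested for Weibel-Palade body cargo and release, the smallest p values belonged to the chemokine CXCL8 (9.68 ± 13.2 CPM without CHF and 3.98 ± 2.47 CPM with CHF, SD, log2FoldChange = -1.21, SE 0.40, FDR = 0.480) and endothelin-1, EDN1 (12.998 ± 3.81 and 10.2 ± 4.03 CPM, log2FoldChange = -0.40, SE 0.16, FDR = 0.662). The median of this list was 0.03, beside 0.01 over all features. Among 11 transcription factors reported to act on the VWF promoter, KLF4 (-0.26, SE 0.11, FDR = 0.696) and FLI1 (-0.11, SE 0.08, FDR = 0.875) had the smallest p, and the median was -0.02. For the 15 tested genes of VWF cleavage, clearance and binding the median was -0.04, led by the asialoglycoprotein receptor genes ASGR2 (1.57, SE 0.78, FDR = 0.786, at a mean of 0.079 CPM with CHF and 0.025 CPM without) and ASGR1 (-0.61, SE 0.40, FDR = 0.855). ADAMTS13, the protease that cuts von Willebrand factor, was low throughout (0.441 to 2.49 CPM) and differed by -0.22 (SE 0.23, FDR = 0.937); it was named for its role, outside the rule for naming genes.

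The 12 anticoagulant genes had a median of -0.11, with the ectonucleotidases NT5E (128 ± 35.9 CPM without CHF and 97.9 ± 27.5 CPM with CHF, SD, log2FoldChange = -0.37, SE 0.15, FDR = 0.662) and ENTPD1 (-0.31, SE 0.13, FDR = 0.739) first. Among 8 coagulation factors F11 (-0.65, SE 0.38, FDR = 0.838) and KLKB1 (-0.34, SE 0.20, FDR = 0.847) came first, both at a mean of at most 2.0 CPM. Of 4 thrombin and protease-activated receptor genes, F2R had a log2FoldChange of -0.24 (SE 0.10, FDR = 0.687) and F2RL3 one of 0.58 (SE 0.56, FDR = 0.924). The adhesion molecules VCAM1 (230 ± 86.2 CPM without CHF and 301 ± 130 CPM with CHF, SD, log2FoldChange = 0.40, SE 0.19, FDR = 0.779) and SELPLG, the P-selectin ligand (0.31, SE 0.16, FDR = 0.805), led a list of 9 with a median of 0.01. In the EMILIN family, relatives of the multimerins, EMILIN3 (-0.31, SE 0.19, FDR = 0.848) and EMILIN1 (0.07, SE 0.12, FDR = 0.965) completed the named genes.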

How the data were processed

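Mitral valves of 34 dogs were analysed, grouped by the deposited labels. The authors mapped reads with STAR to canFam4 (UU_Cfam_GSD_1.0) and deposited a table of raw counts from featureCounts 2.0.3, run without strand, with both reads of a pair and each overlapped feature counted. Features came from canine RefSeq (exons) or from aligned human RefSeq transcripts (often with introns), and the canine feature was used where both were listed. Of the count columns, 1 belongs to no sample and was not used.

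The members and lists were chosen with earlier results of these data known. Counts were fitted with edgeR 4.0.16 (quasi-likelihood, TMM, sex and CHF as terms, sum of at least 100 counts, FDR 0.1 over 19568 features) in R 4.3.3, with DESeq2 1.42.0 and limma 3.58.1 as alternatives. Intervals of 95% are the SE times the t quantile on the residual degrees of freedom. Correlations used log2 CPM (prior count 2) and 100000 two-sided resamples within CHF status by sex, adjusted by Benjamini-Hochberg over 9, 36 or 80 relations. Score differences were adjusted over 8 scores. Named genes were the members, the 10 genes most like VWF, the 3 most like each other member and the 2 with the smallest p of each related list. No 2 of 561 pairs of libraries agreed within sampling noise. The fits and the correlation test were tested on simulated data. Each library is 1 dog, and p-values measure the spread between dogs.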

Additional observations from a re-analysis of the deposited data

Results flagged for a closer look

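With dogs split by CHF and sex, 40 sets of values (10 genes in 4 groups) were searched for a dog far from the others by Dixon's ratio of gap to range on log2 CPM, and 6 were found, where chance gives about 2. Several of the genes rise and fall together across dogs, so the sets are not independent and the 6 are not read as an excess. Of the 6, 3 were low values of 1 female with CHF, CAV1047, in a group of 6. Its SELP level was 13.7 CPM beside 51.9 CPM in the next dog (ratio 0.705), its PROCR level 9.05 beside 29.4 CPM (ratio 0.78) and its TFPI level 8.25 beside 11.8 CPM (ratio 0.63). The same library had the highest F8 and the second highest VWF (357 CPM) of the 15 dogs with CHF, the most cardiac muscle marker RNA (50652 CPM) and the fewest total counts. Their part in these values was not tested.

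CAV648, a male with CHF and the dog with the most VWF, had a PROCR level of 75.3 CPM beside 36.5 CPM in the next dog (ratio 0.554, 9 males) and an MMRN2 level of 66.5 beside 43.7 CPM (ratio 0.508). It also had the highest TFPI and the second highest SELP and THBD of the 15 dogs with CHF, and the highest endothelial score of the 34 dogs (5.20, with 4.94 in the next dog), whose part in these values was not tested. CAV749, a male without CHF, had 2 MMRN1 counts (0.026 CPM) beside 6.20 CPM in the next of 9 males (ratio 0.782).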

How the results depend on the processing

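The log2 difference of VWF between the groups stayed within 1.22 to 1.63 over other normalizations, filters, tools, covariates, features and left-out dogs, and 0 of the other 9 genes was called in any of these fits. In the sex and interaction fits 0 of the 10 genes was called under any alternative run. Dropping CAV614 and CAV1047 or removing the cardiomyocyte score left 11 and 10 of the 36 pairs passing, in place of 12. After the cardiomyocyte score was removed, 1 relation of VWF passed in place of 0 (with F3, rho = -0.510) and 3 relations with marker scores passed in place of 12, with 70 and not 80 computed. Of the 12, 4 were with the cardiomyocyte score itself and could not be among the 70. The 3 were MMRN1 with the lymphatic score, MMRN2 with the endothelial score and SELP with the endothelial score, the last not among the 12. In limma voom with sample weights MMRN1 was at 0.91 in place of 0.39 (log2, CHF). The cause was not tested.

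Differences near 0 changed sign without being called. With the endothelial score as a covariate SELP was at -0.022 and TFPI2 at 0.067 (log2, CHF). From human-derived features SELP was at -0.011 and TFPI at -0.0097 for CHF, and THBD at 0.054 for sex. Leaving out each dog in turn gave, for CHF, -0.045 to 0.10 for SELP, -0.0021 to 0.074 for TFPI, -0.21 to 0.12 for TFPI2, -0.57 to 0.17 for F3 and -0.023 to 0.097 for MMRN2. For sex it gave -0.016 to 0.13 for SELP, -0.075 to 0.099 for THBD, -0.20 to 0.065 for TFPI2 and -0.087 to 0.026 for MMRN2. As the log2 of summed CPM, the lymphatic endothelial score differed by -0.074 and the mural cell score by 0.19. Without CAV614 and CAV1047 the valve interstitial score differed by 0.027 and the red blood cell score by -0.12.

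F3 and MMRN1 had as few as 5 and 2 counts in a dog, and their intervals allow changes of over 2-fold. With 6 to 9 dogs with CHF per sex, the interaction of VWF had an interval reaching 1.68 on the log2 scale.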

Other observations

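Counts of the human-derived VWF feature that fell outside the canine exons made up a median of 7.87% (3.04% to 22.2%) of that feature in the 19 dogs without CHF and 4.41% (2.12% to 10.9%) in the 15 dogs with CHF. The medians without and with CHF were 15.2% and 10.47% for F8, 20.9% and 19.1% for SELP, 40.8% and 40.2% for PROCR, 69.5% and 68.1% for THBD and 62.1% in both groups for TFPI. The figure is the human-derived count minus the canine count, as a percent of the former, and since the 2 features need not hold the same exons it is no true share for each gene (for F3 it was as low as -66.7% in 1 dog). The VWF values belong to the contrast on which VWF was chosen and are given with no test.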
